A study of Homo sapiens with 6 samples.

Results

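The genes described here are 10 chemokines: the CC ligands CCL2, CCL3, CCL4, CCL5, CCL7 and CCL20, the interferon-inducible CXCL10 and CXCL11, and the membrane-bound CXCL16 and CX3CL1. Beside them, 19775 genes had a probe set of their own on the arrays, a count that holds 9 of the 10 and leaves out CCL3. They were picked by name, with the difference between the groups on these same arrays already known, so their differences are given as a description and without a test. All probe sets whose platform annotation names one of the 10 genes were used, which gave 14 of 54613 probe sets. A single probe set reads CCL3, and it also names its near copies CCL3L1 and CCL3L3.

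Chemokines are small secreted proteins that draw leukocytes along a concentration gradient by binding G protein-coupled receptors on their surface. CC chemokines such as CCL2 and CCL5 chiefly attract monocytes, T cells and dendritic cells, and many of their genes are switched on by the transcription factor NF-kappaB. CXCL10 and CXCL11 are induced by interferons and attract activated T and NK cells through CXCR3, while CXCL16 and CX3CL1 are made as membrane proteins and released by proteases. Breast tumour cells can make several of them, CCL2 and CCL5 among the best known.

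RNA came from MDA-MB-436, an established triple-negative human breast tumour line, on Affymetrix arrays. Of the 6 arrays, 3 hold wild type cells and 3 hold cells titled NF1-C2S, which carry an expression plasmid after stable transfection; the series record spells the construct NF1-C2 and the condition field NF-C2. The name may stand for a form of nuclear factor I-C, encoded by NFIC, which the labels do not spell out. All cells of both groups grew in RPMI-1640 with serum, antibiotics and insulin, and no other treatment, time or genotype is given. The labels name no control cells with an empty plasmid, and no source used here states whether 1 clone or a pool was profiled or which promoter drives the plasmid. The labels do not tie the replicates to separate cultures. The p-values therefore rest on the spread among these 6 samples, and that spread may be technical.

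Values are RMA expression on the log2 scale, where a difference of 1 is a doubling, and "dim" means a group mean below 4.82, the median of all values. RMA compresses differences near the dim end. Wild type arrays correlated with each other at 0.996, NF1-C2S arrays with each other at 0.992 to 0.997, and arrays of different groups at 0.971 to 0.976. The brightest probe set of NFIC read 8.47 ± 0.06 in wild type and 8.25 ± 0.04 in NF1-C2S arrays (SD, n = 3 each), so it was not above wild type. Its other probe sets differed in both directions, by -0.11, -0.51 and 0.22 (NF1-C2S minus wild type). Since no source used here states which gene and which part of its message the plasmid holds, these values do not check the labels. Of 8 breast tumour line markers, keratin KRT18 (12.55 ± 0.11 in wild type) and vimentin (VIM, 13.54 ± 0.01) were bright, while KRT19 and the progesterone receptor gene PGR were dim at 4.01 ± 0.20 and 3.12 ± 0.19. ERBB2, KRT8, the estrogen receptor gene ESR1 and EPCAM lay between, at 7.47 ± 0.04, 6.59 ± 0.19, 5.88 ± 0.17 and 5.71 ± 0.36 in wild type, all above the dim range. KRT18 and VIM both fell, by 0.93 and 0.52 (limma adjusted p = 0.000136 and 0.000644). At an adjusted p under 0.05, 2 of 8 markers fell and 0 rose, against 16.9% and 15.0% of all genes. At an unadjusted p under 0.05, 4 fell, with EPCAM (-0.75) and ERBB2 (-0.22) among them, and 0 rose. The summed level of the list was 14.13 to 14.18 in wild type and 13.49 to 13.56 in NF1-C2S arrays. The part of this shift in the results below was not tested.

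Promoter sequences are shown for the letters that the factors named above are known to bind. RefSeq windows of 300 bases (GRCh38.p14, from 250 bases before to 50 after the transcription start) were at hand for 5 of the 10 genes: CCL3, CCL7, CCL20, CXCL10 and CXCL11. CCL20 and CCL3, which had the largest differences between the groups, and CXCL10 and CXCL11, which stayed dim in both, are printed below 5′ to 3′ along the gene's own strand. Capitals mark matches to the kappaB consensus, bound by NF-kappaB, or to the interferon-stimulated response element (ISRE), searched as TTTC, any 2 bases and TTTC, each searched on both strands.
CCL20 (chr2:227813592-227813891, plus strand): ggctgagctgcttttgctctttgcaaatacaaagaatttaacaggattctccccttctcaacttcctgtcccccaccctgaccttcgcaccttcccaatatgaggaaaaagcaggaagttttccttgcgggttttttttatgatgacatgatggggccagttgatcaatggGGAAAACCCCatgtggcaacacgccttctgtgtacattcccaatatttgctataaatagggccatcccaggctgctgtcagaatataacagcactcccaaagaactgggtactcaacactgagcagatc
CCL3 (chr17:36090094-36090393, minus strand): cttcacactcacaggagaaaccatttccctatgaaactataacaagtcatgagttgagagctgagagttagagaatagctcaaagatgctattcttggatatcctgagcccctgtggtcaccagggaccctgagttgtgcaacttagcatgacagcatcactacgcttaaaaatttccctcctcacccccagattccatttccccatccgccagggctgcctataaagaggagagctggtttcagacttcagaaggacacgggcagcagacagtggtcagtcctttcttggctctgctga
CXCL10 (chr4:76023448-76023747, minus strand): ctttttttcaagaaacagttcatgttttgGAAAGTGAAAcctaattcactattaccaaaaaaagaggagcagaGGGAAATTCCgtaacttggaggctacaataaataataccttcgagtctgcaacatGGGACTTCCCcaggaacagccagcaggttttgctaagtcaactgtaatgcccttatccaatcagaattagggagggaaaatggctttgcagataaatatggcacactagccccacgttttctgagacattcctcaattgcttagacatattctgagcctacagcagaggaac
CXCL11 (chr4:76036021-76036320, minus strand): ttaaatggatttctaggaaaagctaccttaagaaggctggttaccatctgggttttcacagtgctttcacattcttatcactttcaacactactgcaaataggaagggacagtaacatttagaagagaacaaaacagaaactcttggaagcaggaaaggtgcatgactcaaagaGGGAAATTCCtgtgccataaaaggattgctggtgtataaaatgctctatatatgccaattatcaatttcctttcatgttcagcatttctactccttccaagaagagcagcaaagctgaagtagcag
Counting the first transcribed base as 1 and the base before it as -1, the kappaB match of CCL20 runs from -79 to -70, those of CXCL10 from -177 to -168 and from -122 to -113, and that of CXCL11 from -76 to -67. The ISRE match of CXCL10 runs from -221 to -212 and overlaps neither kappaB match. CCL3 and CCL7 hold neither motif in this window.

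A kappaB match stood in 3 of the 5 windows, against 10.8% of 27303 RefSeq promoter windows of the same length, and an ISRE match in 1 of 5 against 3.65%. The full nuclear factor I site, TTGGC and GCCAA with 5 bases between, was in 0 of 5 windows against 0.033% of all, and TTGGC alone in 2 of 5 (CCL3 and CXCL11) against 46.1%. The letters TATAAA of a TATA box were in 4 of 5 windows (12% of all), CXCL10 being without. The AP-1 site, TGANTCA, was in CCL7 and CXCL11 (7.76% of all), in CXCL11 at -87 to -81, just upstream of its kappaB match. The interferon-gamma site GAS, TTCNNNGAA, was in CCL7 and, with 2 matches, in CXCL11 (7.88% of all). The genes with a kappaB match thus include CCL20, with a large difference, and CXCL10 and CXCL11, with next to none. These matches are letters in a window and say nothing of binding.

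Across the 10 genes, CCL3, CCL20, CCL2, CCL5, CCL4 and CCL7 were higher in the NF1-C2S cells, CXCL16 was lower, and CXCL10, CXCL11 and CX3CL1 read nearly alike. Of the 14 probe sets, 8 were higher and 1 lower past a limma adjusted p under 0.05, where 22.2% of all probe sets passed in either direction, 10.8% as higher and 11.4% as lower. The same 9 had groups that do not overlap, as had 34.9% of all probe sets. Since the genes were picked with this contrast known, these counts describe them and show nothing further. RNA from whole cultures does not tell more RNA in every cell from more cells that express a gene. The median difference (NF1-C2S minus wild type) was 1.095 over the 14 probe sets and 0.0067 over all probe sets.

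**Figure D1:**
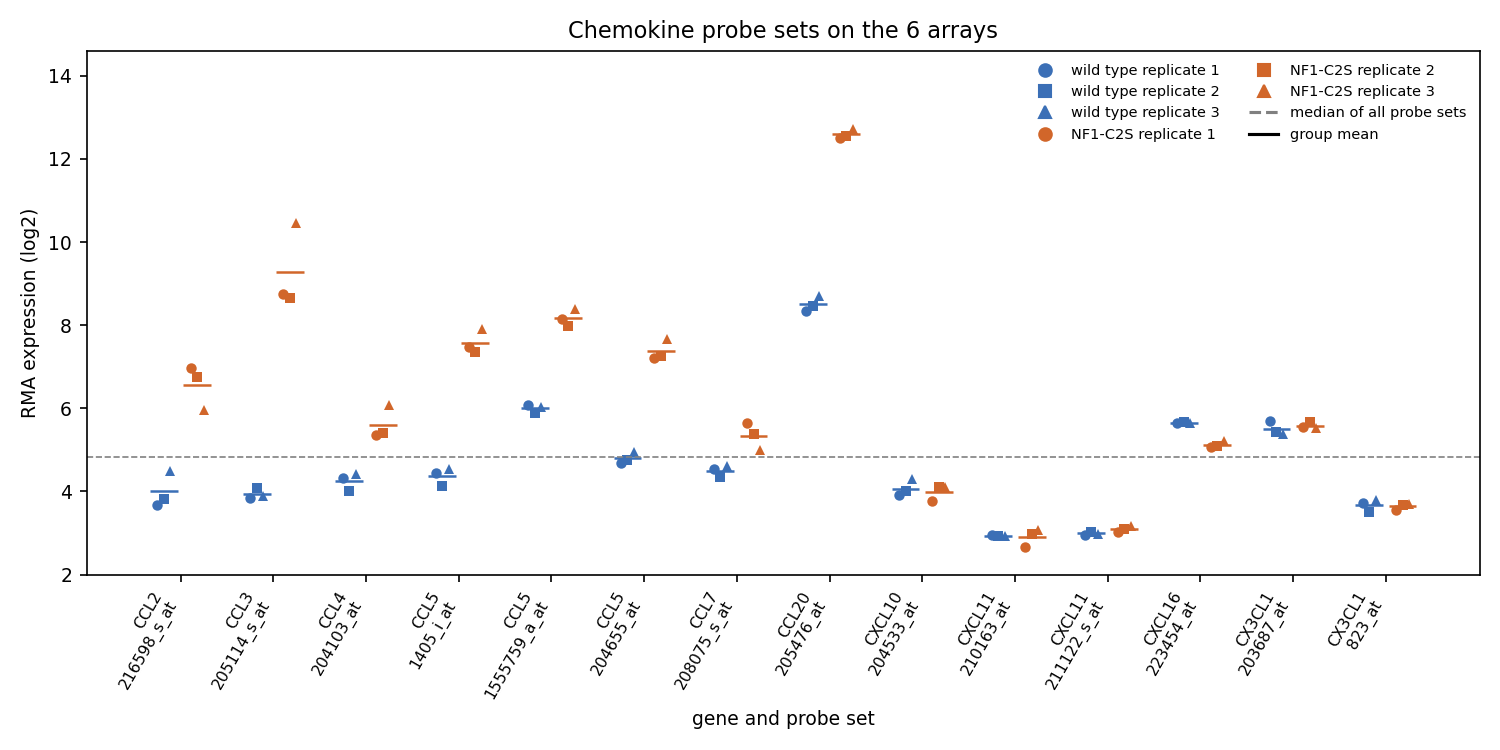
RMA expression (log2) of each chemokine probe set on every array; colours give the group, marker shapes the replicate, short lines the group means (n = 3 each) and the dashed line the median of all values, 4.82. CCL20 is bright in both groups, CCL3 goes from the dim range to 8.66 or more, and CXCL10 and CXCL11 lie below the dashed line on all 6 arrays.

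CCL20, the ligand of CCR6 that attracts memory T cells, B cells and immature dendritic cells to mucosal surfaces, was bright in wild type cells and higher still in NF1-C2S cells. Its only probe set, 205476_at, read 8.34, 8.45 and 8.71 in wild type replicates 1 to 3 and 12.49, 12.56 and 12.71 in NF1-C2S replicates 1 to 3. All transfected arrays lay far above all wild type arrays, and the spread within a group was small beside the gap. The means were 8.50 ± 0.19 and 12.59 ± 0.11 (SD, n = 3), a difference of 4.09 (SE 0.12), or 17-fold. In wild type cells it already stood above 87.2% of probe sets, and in NF1-C2S cells above 99.4%. CCL20 lies at chr2:227813842-227817556.

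CCL3, a ligand of CCR1 that recruits macrophages and other leukocytes to inflamed tissue, differed most. Probe set 205114_s_at read 3.85, 4.09 and 3.90 in wild type and 8.75, 8.66 and 10.45 in NF1-C2S cells. Wild type arrays were dim and tightly grouped, while NF1-C2S replicate 3 stood well above the other two. The means were 3.95 ± 0.13 and 9.29 ± 1.01, a difference of 5.34 (SE 0.43) or 40.5-fold, rank 14 by size among 54613 probe sets. Because the probe set also names CCL3L1 and CCL3L3, the share of each gene cannot be told apart. The promoter windows of CCL3 and CCL3L3 were alike too, with 278 of 294 aligned bases identical (94.6%).

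CCL4 and CCL5 attract T cells, monocytes and NK cells, and CCL5 binds CCR1 as CCL3 does. CCL4, at chr17:36103827-36105614 next to CCL3 (chr17:36088256-36090143), read 4.33, 4.0 and 4.43 in wild type and 5.36, 5.40 and 6.08 in NF1-C2S cells. Its groups did not overlap, but the level stayed modest: the means were 4.25 ± 0.23 and 5.61 ± 0.40, a difference of 1.36 (SE 0.20) or 2.57-fold. In the NF1-C2S cells CCL4 stood above 61.8% of probe sets and CCL3 above 91.9%, from 39.4% and 32.5% in wild type.

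CCL5, also called RANTES, had 3 probe sets, and all gave the same direction. The brightest, 1555759_a_at, read 6.07, 5.89 and 6.03 in wild type and 8.14, 7.99 and 8.38 in NF1-C2S cells. The groups of each probe set were far apart, with no overlap. The differences were 2.17 (SE 0.11) on that probe set, 2.57 (SE 0.14) on 204655_at and 3.21 (SE 0.16) on 1405_i_at, or 4.51-, 5.92- and 9.27-fold. The probe sets thus shared a direction and gave different sizes. CCL5 lies at chr17:35871491-35880360.

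CCL2 and CCL7 are ligands of CCR2 and draw monocytes out of the blood; their genes lie close together at chr17:34255285-34257203 and chr17:34270221-34272242. CCL2 read 3.68, 3.83 and 4.49 in wild type and 6.96, 6.75 and 5.96 in NF1-C2S cells. The groups did not overlap, though both were spread, and replicate 3 was the highest wild type array and the lowest NF1-C2S array. The means were 4.0 ± 0.43 and 6.56 ± 0.53, a difference of 2.56 (SE 0.29) or 5.88-fold. CCL7 read 4.53, 4.36 and 4.62 against 5.64, 5.38 and 4.99, a smaller gap that also left the groups apart. Its means were 4.50 ± 0.13 and 5.34 ± 0.33, a difference of 0.83 (SE 0.16) or 1.78-fold. Each was read by 1 probe set.

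The CXCR3 ligands CXCL10 and CXCL11 were dim in both groups. CXCL10 read 3.91, 4.01 and 4.29 in wild type and 3.76, 4.12 and 4.10 in NF1-C2S cells, so the groups overlapped. Its difference was -0.08 (SE 0.14). CXCL11 read 2.94 ± 0.02 against 2.90 ± 0.21 on 210163_at and 2.99 ± 0.04 against 3.09 ± 0.07 on 211122_s_at (SD, n = 3), with differences of -0.03 and 0.11 and overlapping groups on both. These levels lay above 3.4% to 35.2% of all probe sets, in the dim range where RMA compresses differences. CCL3 and CCL2 were also dim in wild type, above 32.5% and 33.8% of probe sets, and were higher in NF1-C2S cells. Whether compression hid a difference in CXCL10 or CXCL11 was not tested. CXCL9, the remaining CXCR3 ligand, was tested outside the set and read 3.81 ± 0.08 and 4.08 ± 0.23, a difference of 0.27 that missed the threshold (limma adjusted p = 0.152), though it passed without NF1-C2S replicate 2 (0.0265).

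Of the membrane-bound chemokines, CXCL16, a ligand of CXCR6 that also serves as a scavenger receptor for oxidized lipoprotein, was the only one of the 10 genes that was lower without overlap. Probe set 223454_at read 5.64, 5.66 and 5.64 in wild type and 5.08, 5.10 and 5.21 in NF1-C2S cells. The wild type arrays were nearly identical and all lay above the transfected ones. The difference was -0.52 (SE 0.08), from 5.65 ± 0.01 to 5.13 ± 0.07, or 1.43-fold. CX3CL1, or fractalkine, the ligand of CX3CR1 that tethers leukocytes to vessel walls, read 5.51 ± 0.17 and 5.57 ± 0.08 on 203687_at and 3.68 ± 0.15 and 3.64 ± 0.08 on 823_at, with overlapping groups. Its differences were 0.07 and -0.03 (SE 0.10 each).

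Within the NF1-C2S group, the chemokines did not spread alike. Replicate 3 was the highest transfected array for 10 of the 14 probe sets, CCL3, CCL4, CCL5 and CCL20 among them, and the lowest for 3, which were CCL2, CCL7 and a CX3CL1 probe set. CCL3 was 1.74 higher on replicate 3 than on the mean of replicates 1 and 2, which was the largest such gap, up or down, of all 54613 probe sets. CCL4 was 0.70 higher, and the CCL5 probe sets 0.31 to 0.49 higher. CCL2 departed by -0.90 on replicate 3 and CCL7 by -0.52. So the CCL5, CCL3 and CCL4 genes departed one way on that array and the CCL2 and CCL7 genes the other way. Over all probe sets, replicate 3 correlated at 0.997 with replicate 2, and it was replicate 1 that stood slightly apart (0.992 and 0.993). Without replicate 3 the difference of CCL3 was 4.76 and that of CCL2 was 2.86. This pattern was noticed in the data, rests on 1 array and was not tested. In the wild type group, too, replicate 3 was the highest array for 8 of the 14 probe sets and the lowest for 1. There CCL2 stood 0.74 above the mean of replicates 1 and 2.

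**Figure D2:**
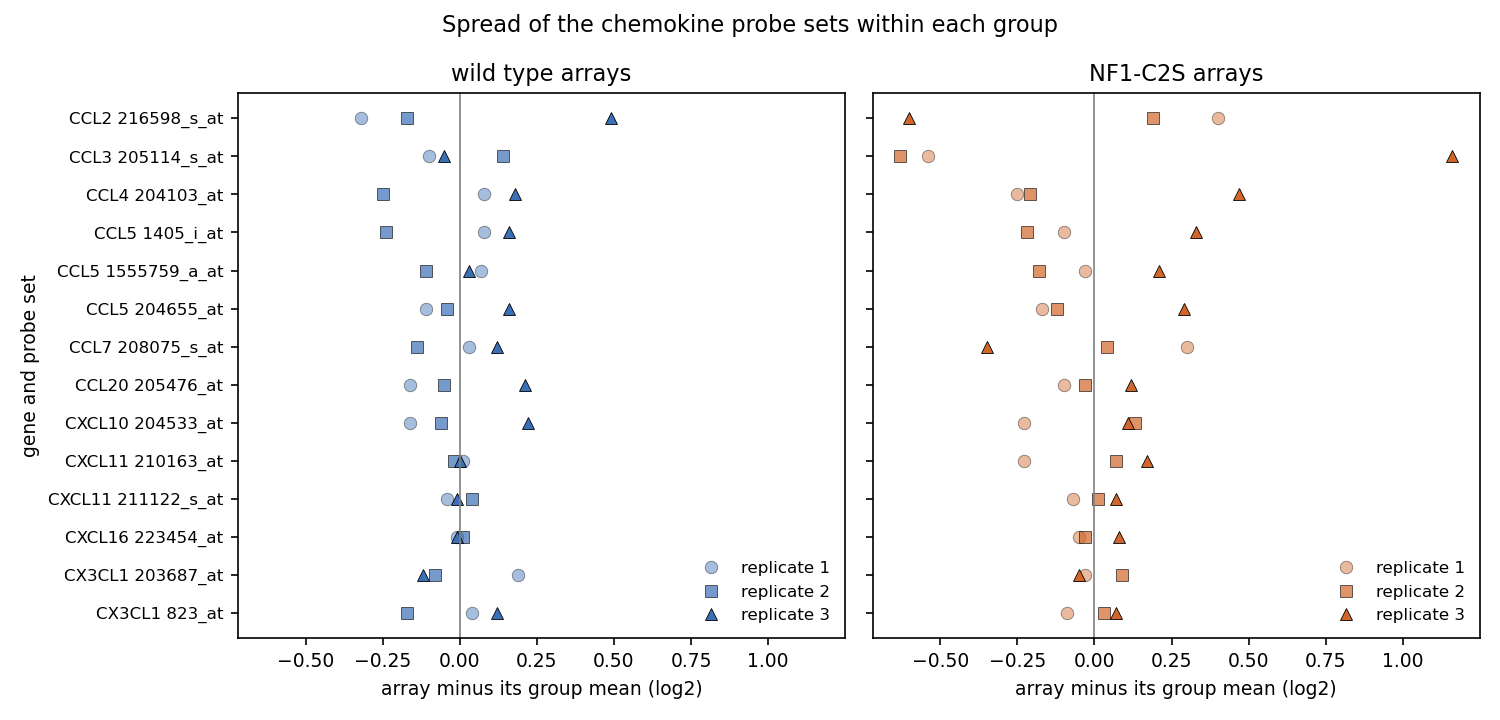
Each array's value minus its group mean (log2) for the 14 chemokine probe sets, wild type on the left and NF1-C2S on the right; marker shapes give the replicate. On the right, replicate 3 lies at 1.16 for CCL3 and 0.47 for CCL4, and at -0.60 for CCL2 and -0.35 for CCL7.

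Position along the chromosome was not used to pick the genes, so the neighbours of each chemokine run were tested in the fit over 19775 genes, in which 31.9% of genes passed, 15.0% as higher and 16.9% as lower. Of 60 genes, the 5 nearest measured genes that are no chemokine on each side of 6 runs, 4 rose and 9 fell. The count dropped from 13 to 8 without wild type replicate 1 or 2, and the count of those that rose dropped from 4 to 1 without wild type replicate 1 or 2 or NF1-C2S replicate 3. Of the 10 neighbours of CCL20, 5 fell, 0 rose (0 also at an unadjusted p under 0.05) and 5 did not pass, with a median of -0.52. The thiamine transporter gene SLC19A3 fell from 6.59 to 5.07 ± 0.16 (log2 difference -1.52, limma adjusted p = 0.000158), and DNER, AGFG1 and MFF, named after their values were seen, fell by 1.31, 1.26 and 1.13. CCL20 was thus higher by 4.09 within a stretch whose measured genes ran from -1.52 to 0.19.

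Beside CCL5, CCL3 and CCL4, the 10 neighbours ran from -0.54 to 0.34, with 1 higher and 1 lower. The lower one, PIGW, an enzyme of GPI anchor synthesis, fell by 0.54 (limma adjusted p = 0.0252), a call that ended without wild type replicate 1 or 2 or NF1-C2S replicate 1 or 3 (0.0511, 0.062, 0.052 and 0.0592). Beside CCL2 and CCL7, 2 of 10 rose, led by TMEM98, a membrane protein gene (0.91, limma adjusted p = 9.84e-05), and 0 fell (1 at an unadjusted p under 0.05). Beside CXCL10 and CXCL11, 1 of 10 rose and 0 fell (0 also unadjusted): SCARB2, a lysosomal membrane protein gene, by 0.32 (limma adjusted p = 0.0253, and 0.0692 to 0.0895 without wild type replicate 1 or 2 or NF1-C2S replicate 2 or 3). SCARB2 read 0.30, 0.09 and -0.04 on its other probe sets, and the mean of its probe sets, 0.17, did not pass (limma adjusted p = 0.189). CXCL16 had 0 of 10 neighbours past the threshold (1 unadjusted), and CX3CL1 had 3 of 10, all lower, led by COQ9, a coenzyme Q synthesis gene (-0.97, limma adjusted p = 4.59e-05, but -0.03 on its dimmer probe set). The differences of CCL2, CCL5, CCL3 and CCL4 thus stood between genes with smaller ones, while CCL7, at 0.83, did not exceed TMEM98. Several neighbours of CCL2 and CCL7, such as ASIC2 and CCT6B, were dim, where RMA compresses differences. Of all 60 neighbours, 36 had a mean over the 6 arrays above 4.82. In a fit of such probe sets only, 16 of these passed, 5 as higher and 11 as lower.

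**Figure D3:**
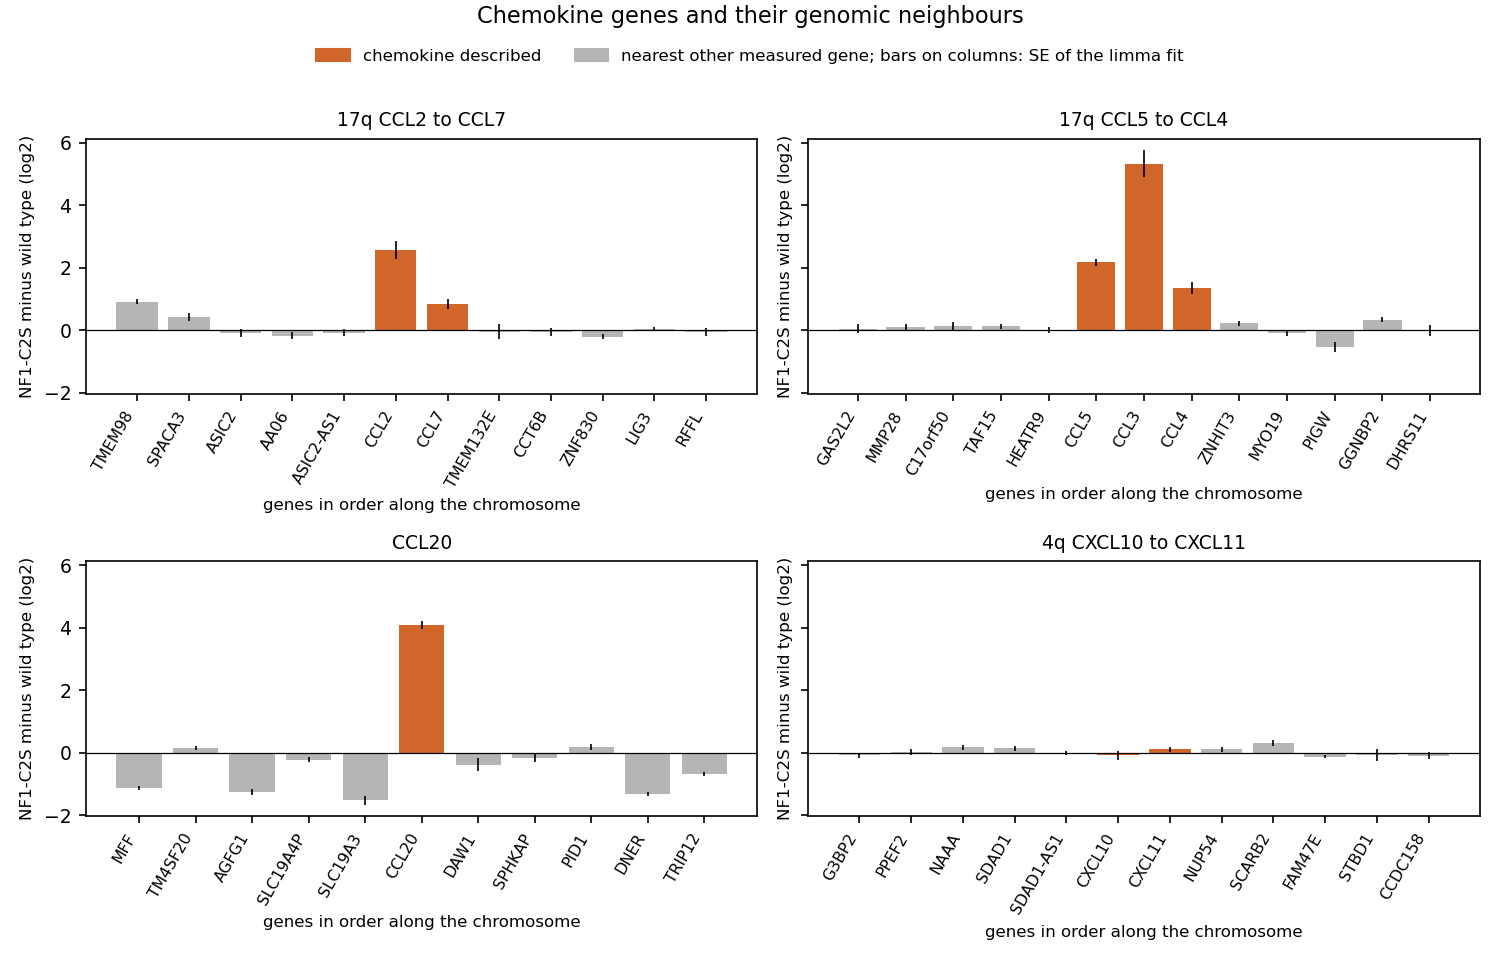
Difference NF1-C2S minus wild type (log2; error bars, SE of the limma fit) for chemokines in orange and their nearest measured genes that are no chemokine in grey, in order along the chromosome but not to distance. CCL20, at 4.09, stands among neighbours between -1.52 and 0.19, and CCL5, CCL3 and CCL4 among neighbours between -0.54 and 0.34.

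Outside the neutrophil-attracting CXC ligands, few of the remaining chemokines passed the threshold, which 15.0% of all genes passed as higher and 16.9% as lower. Of 25 further CC, CXC and XC ligands fixed as a list, 21 were measured, 0 rose (1 at an unadjusted p under 0.05), 2 fell and 19 did not pass, with a median of -0.02 against 0.00 for all genes. CXCL14, a chemokine made by many epithelia, fell from 6.74 ± 0.11 to 4.78 ± 0.10 (log2 difference -1.96, limma adjusted p = 8.29e-06) and fell by 2.71 on 222484_s_at, while the dim 237038_at read 0.10. CXCL12, the stromal chemokine that holds cells bearing CXCR4, fell by 0.93 (limma adjusted p = 0.000421) on 203666_at and by 3.03 on 209687_at, which became the brighter one and gave -3.13, -2.90 or -3.06 when NF1-C2S replicate 1, 2 or 3 was left out. Members of the same chromosome 17 gene clusters, named after their values were seen, were dim or nearly so and did not pass: CCL8 at 3.02 ± 0.06 and 3.09 ± 0.10, CCL11 at 3.90 ± 0.10 and 4.09 ± 0.07, CCL16 at 3.55 ± 0.03 and 3.50 ± 0.14, and CCL18 at 4.93 ± 0.12 and 5.17 ± 0.20. Of the 8 neutrophil-attracting CXC ligands, 5 rose and 1 fell, with a median of 2.12. That list was chosen with earlier results of these data known, so its count is a description.

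Most chemokine receptors were dim in the tumour cells, and the known receptors of these 10 ligands that were measured did not pass the threshold on their brightest probe sets. Of 23 receptors 21 were measured, of which 1 rose, 1 fell and 19 did not pass, with a median of 0.06. Over all genes, 15.0% rose and 16.9% fell. CCR1 read 3.59 ± 0.16 and 3.65 ± 0.20, CCR2 3.42 ± 0.10 and 3.51 ± 0.19, and CCR6, the receptor of CCL20, 3.19 ± 0.06 and 3.25 ± 0.18. CXCR6 read 4.74 ± 0.14 and 4.81 ± 0.06, CX3CR1 4.27 ± 0.21 and 4.14 ± 0.14, and CXCR3, the one above the dim range, 5.45 ± 0.35 and 5.46 ± 0.40 (limma adjusted p = 0.987). A dimmer probe set of CX3CR1, 205898_at, fell by 0.51 (limma adjusted p over probe sets = 0.031). The receptor that fell was CXCR4, the CXCL12 receptor, from 5.90 ± 0.08 to 4.94 ± 0.11 (log2 difference -0.96, limma adjusted p = 0.000124) and by 0.87 and 2.18 on its other probe sets. CXCR1 rose by 0.26 (limma adjusted p = 0.0372), a call that ended under trend and robust moderation (0.121) and without wild type replicate 1, 2 or 3 or NF1-C2S replicate 1 or 2 (0.0644 to 0.106).

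The list for chemokine cleavage and shedding holds proteases, their inhibitors TIMP1 and TIMP3, and the protease cofactors RHBDF1 and RHBDF2. All 14 genes were measured: 4 passed as higher, 4 as lower and 6 did not pass, with a median of 0.04. The shares of all genes that passed were 15.0% as higher and 16.9% as lower. The 4 higher genes were the proteases ADAM10, ADAM17, FURIN and MMP1, and the 4 lower ones were the proteases DPP4 and MMP2 and the inhibitors TIMP1 and TIMP3. ADAM10, which releases CX3CL1 and CXCL16 from resting cells, read 8.52, 8.77 and 8.56 in wild type and 10.16, 10.26 and 10.11 in NF1-C2S cells, a rise of 1.56 (limma adjusted p = 2.37e-05), and its other probe sets rose by 1.41 and 1.26. ADAM17, which sheds the same proteins on stimulation, rose by 0.90 from 8.63 ± 0.21 (limma adjusted p = 0.000622), with 0.76 and 0.80 on the others. Both shedding enzymes were thus higher in cells in which CX3CL1 itself read nearly the same and CXCL16 was lower by 0.52.

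DPP4, a membrane peptidase that trims the first residues of chemokines such as CXCL10, CXCL11 and CCL5, fell from 7.90 ± 0.25 to 4.76 ± 0.49 (log2 difference -3.15, limma adjusted p = 6.88e-05), and by 3.21 and 3.53 on its other probe sets. The collagenase MMP1 rose by 4.63 (limma adjusted p = 2.54e-05) from 6.76 ± 0.34. MMP2, a gelatinase that can cut CCL7, fell by 3.37 from 8.18 ± 0.50 (limma adjusted p = 4.05e-05), although its dim probe sets read 0.02 each.

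Regulators of NF-kappaB were higher where they differed. Of 22, 20 were measured, 11 rose, 0 fell (0 also at an unadjusted p under 0.05) and 9 did not pass. The median was 0.37 against 0.00 for all genes, of which 15.0% rose and 16.9% fell. Like the other lists, this one was chosen with earlier results of these data known, so its count is a description. NFKBIZ, an atypical inhibitor family member that acts in the nucleus on cytokine genes, read 8.60, 8.60 and 9.05 in wild type and 11.43, 11.42 and 11.34 in NF1-C2S cells, a rise of 2.65 (limma adjusted p = 1.18e-05). The kinase TBK1 rose by 1.34 (1.15e-05), the inhibitor TNIP1 by 1.33 (4.05e-05) and the subunit RELB by 0.97 (0.000124), all by limma adjusted p. The other TNIP1 probe set, 243423_at, read 0.41 and did not pass (limma adjusted p over probe sets = 0.13). Of the main subunits, NFKB1 rose by 0.37 from 8.52 ± 0.09 (limma adjusted p = 0.0119), and RELA read 9.26 ± 0.08 and 9.34 ± 0.06 (0.499).

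Interferon genes and their signalling differed in both directions. Of 33 genes 30 were measured, and 8 were higher, 5 lower and 17 short of the threshold, with a median of 0.02. Among all genes, 15.0% were higher and 16.9% lower. The RNA sensor RIGI rose by 1.35 from 6.26 ± 0.20 (limma adjusted p = 0.000197), the DNA-pathway adaptor STING1 by 1.27 (0.000133) and the feedback inhibitor SOCS1 by 1.14 on its brightest probe set (0.000995), while its others read 0.05 to 0.29. The RNA receptor TLR3 fell by 1.07 (0.00122), with differences of -0.67 and 0.00 on its other probe sets and -0.58 as the mean of all its probe sets. IRF1, a factor that drives CXCL10, read 7.19 ± 0.10 and 7.36 ± 0.16 (0.269). The interferons themselves were dim, IFNB1 at 3.73 ± 0.24 and 3.54 ± 0.31 and IFNG at 3.61 ± 0.07 and 3.55 ± 0.02, named after their values were seen.

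**Figure D4:**
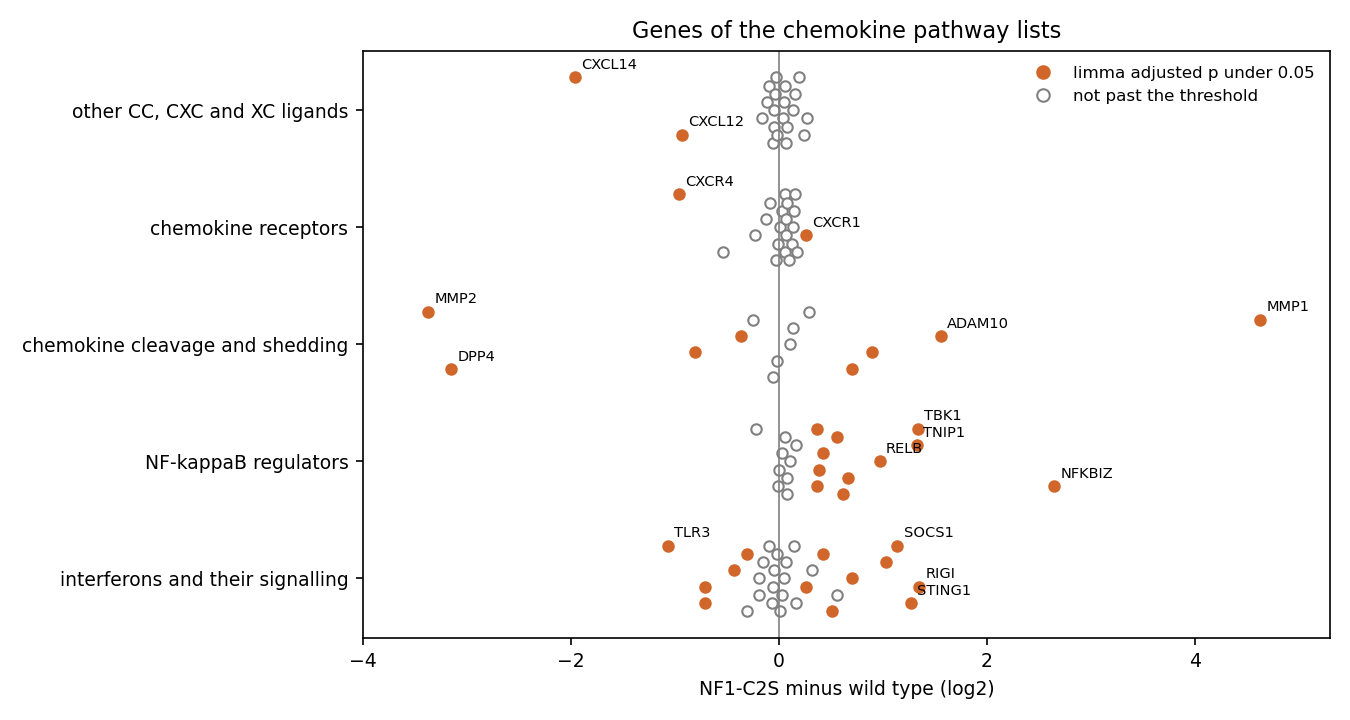
Difference NF1-C2S minus wild type (log2) of each measured gene in the 5 pathway lists; filled points passed a limma adjusted p under 0.05, open points did not, and vertical offsets only separate points. The receptors and other ligands cluster near 0 apart from CXCR4, CXCL14 and CXCL12, and all 11 filled points of the NF-kappaB list lie to the right of 0. The lists were chosen with earlier results of these data known.

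For CCL3, CCL20 and CCL2, which had the largest differences on their brightest probe sets, genes with a like profile were sought. Only genes that are no chemokine were searched. Likeness was the smallest root mean square distance over the 6 arrays after each gene's wild type mean was subtracted. Nearest to CCL20 were ARMCX2 (distance 0.092), CD274, which encodes the immune checkpoint ligand PD-L1 (0.144), and ARMCX4 (0.205), with differences of 4.19, 4.17 and 3.89. Nearest to CCL2 were NFKBIZ (0.302), CHRNB1 (0.348) and KCTD1 (0.349). CCL3 had no close match among the genes searched, the nearest being the cytokine gene IL24 (0.577), AFAP1-AS1 (0.589) and MMP1 (0.590). A profile of 6 arrays in 2 groups is set mainly by the size of the difference, and the genes were ranked on the same arrays.

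Leukocytes and vessel cells are the usual sources of several of these chemokines, so their markers were read on the same arrays. For the counts below, 15.0% of all genes rose and 16.9% fell. Of 10 monocyte and macrophage markers 1 rose and 1 fell: CD14 rose from 5.77 ± 0.29 to 6.59 ± 0.27 (limma adjusted p = 0.00947) and ITGAM fell by 1.21 (0.00534). The leukocyte marker PTPRC, at 3.65 ± 0.15 and 3.86 ± 0.23, and the macrophage receptor CSF1R, at 3.81 ± 0.05 and 3.76 ± 0.07, were dim. The summed level of that list was 8.18 to 8.27 in wild type and 8.13 to 8.27 in NF1-C2S arrays (log2 of the summed linear values). Of 10 T and NK cell markers 0 passed the limma threshold (1 at an unadjusted p under 0.05), with sums of 8.03 to 8.13 and 8.04 to 8.25. Of 7 endothelial markers 0 passed (0 unadjusted), with sums of 7.42 to 7.51 in both groups.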

How the data were processed

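Expression was measured on 6 arrays. The deposited values are log2 expression per probe set and array, computed by the authors with RMA per the submitters' processing notes. No source used here gives its version or which arrays it normalized together. Values ran from 2.35 to 14.62, array medians from 4.8 to 4.85. Values carry 2 decimals, except 6354 values of wild type replicate 3. Arrays have no read depth, and their number limits the precision. After 62 control probe sets were removed, 54613 remained. Genes were named through the platform annotation, updated by gene identifier to RefSeq (GRCh38.p14): 41091 probe sets name 1 gene, 1801 several and 11721 none. A gene outside the 10 chemokines was read by its brightest probe set that names only that gene.

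The groups were compared with limma 3.58.1 in R 4.3.3 (lmFit and eBayes, two-sided, Benjamini-Hochberg over all 19775 genes, or over all probe sets for single probe sets, threshold 0.05), without a filter on low values. The fit was tested on simulated data. Members and lists were chosen with earlier results of these data known. The text names, beside all members, up to 4 genes past the threshold with the largest differences in each list, the members' receptors and a few fixed regulators, 1 neighbour a run, and genes said to be outside this rule. Alternatives were other normalizations, moderation, array weights, the replicate block, leaving out each array, a filter on dim probe sets, and other probe sets for a gene. Those for single named genes were chosen after seeing the data.

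Deviations of same-numbered arrays from their group means correlated over probe sets at 0.398, 0.238 and 0.140 for replicates 1, 2 and 3. Arrays of different numbers gave -0.277 to 0.142, so only replicates 1 and 2 lay above that range. Deviations within a group cancel out, so these correlations are tied to each other and were not tested. No source used here says what the number marks.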

Additional observations from a re-analysis of the deposited data

How the results depend on the processing

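Of 127 recomputed differences of the 10 chemokines, 124 moved by less than the SD between replicates and 3 by more: CCL5 read 2.65 as the mean of its probe sets, and CXCL11 read 0.04 and -0.03 with other probe sets. The count of chemokine probe sets past the threshold was 9 under every alternative run on probe sets. With the replicate block 6665 genes passed in place of 6300, and no count of a list moved by over 1.5 times. The count of receptors fell from 2 to 1 under trend and robust moderation, and to 1 also when _x_at and _s_at probe sets were dropped. It was 3 under array weights and 1 to 2 when single arrays were left out. The count of other ligands fell from 2 to 1 when the _x_at and _s_at probe sets were dropped, where CXCL14 read 0.10 on a dim probe set; it was 2 to 3 when single arrays were left out, 3 being without NF1-C2S replicate 2. The count of neighbours past the threshold was 8 to 12 when single arrays were left out. CXCL10, CXCL11 and most receptors lay in the dim range where RMA compresses differences, and how far this limits them was not tested. Of the 14 chemokine probe sets, 10 passed the filter on dim probe sets, as did 27409 of all 54613. That filter used the mean over all 6 arrays. CCL2, CCL3, CCL4, CCL7 and the CCL5 probe sets 1405_i_at and 204655_at were dim in wild type and passed only through their NF1-C2S values.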

Other observations

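Further genes of the lists, chosen after their values were seen and counted in the lists above, had these values. Among interferon regulatory factors, IRF7 rose from 6.04 ± 0.03 to 7.07 ± 0.13 (limma adjusted p = 8.59e-05) and IRF9 by 0.70 (0.00682), while IRF8 fell by 0.71 from 7.70 ± 0.15 (0.000991). The protease FURIN rose by 0.70 (0.00202), and the inhibitor of metalloproteases TIMP1 fell by 0.81 from 12.82 ± 0.05 (0.000134).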
